A study of Mus musculus with 15 samples.

Results

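The genes described here are 9 genes of natural killer (NK) cells, taken by name from the count table of 15 mouse tumors: the receptor genes Ncr1, Klrd1, Klrc1, Klrk1, Klre1 and Klrb1c, the transcription factor genes Eomes and Tbx21, and the chemokine gene Xcl1. All 9 were found among the 32543 gene entries and all 9 passed the filter on low counts that left 15494 genes. WEHI-164, a fibrosarcoma line of mouse origin, was grown under the skin of BALB/c females, and RNA was sequenced from whole tumor tissue. Day 0 tumors were untreated. The others received poly(I:C), a synthetic double-stranded RNA sensed by Toll-like receptor 3, injected into the tumor daily at 1 µg per the labels. They were taken on day 1, 3, 5 or 7, with 3 tumors on each day. The study's methods describe a daily course that ended before day 7, so the day 7 tumors were taken after the last injection. Since a supplementary legend of the study names a larger amount, the dose remains uncertain. All groups share the same cell line, mouse strain and sex. The days of treatment and the harvest day rise together, so treatment and tumor age cannot be told apart.

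NK cells are innate lymphocytes that kill stressed, infected or transformed cells without prior immunization. Their activity is set by the balance of activating and inhibitory surface receptors, and double-stranded RNA is a classical stimulus for them, in part through interferon and interleukin 15 made by other cells. None of the 9 genes is a perfect label: Ncr1, Klre1 and Klrb1c are the most restricted to NK cells, while activated CD8 T cells also use Klrd1, Klrc1, Klrk1, Tbx21, Eomes and Xcl1. In whole tumor RNA, fewer NK cells and less RNA per NK cell cannot be told apart.

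Of the receptor genes, 5 lie on chromosome 6 (positions on GRCm38, the mm10 assembly, GENCODE release M21). Klre1 (chr6:129577905-129585827), Klrd1 (chr6:129591782-129598775), Klrk1 (chr6:129610323-129623864) and Klrc1 (chr6:129666015-129678973) sit within 101.1 kb of the NK gene complex, a stretch that holds 6 protein-coding genes with Klrc3 and Klrc2. Klrb1c (chr6:128778485-128789215) lies 788.7 kb from Klre1. Ncr1 is at chr7:4337724-4345164, Eomes at chr9:118478212-118486132, Tbx21 at chr11:97098071-97115331 and Xcl1 at chr1:164931644-164935527. The counts cover whole genes and do not separate exons or untranslated regions. Sequence shared with other genes limits some of them. Of the 31-base words of the longest protein-coding transcript in the basic annotation, 54.5% of those of Klrc1 also occur in another gene, mostly Klrc2, as do 20.3% of those of Klrb1c and 14.2% of those of Xcl1. For the other genes the share was at most 2.85%. Reads of Klrc1 and Klrc2 may therefore have been divided between them, and the strand setting of the counting was not stated, so Xcl1 and Eomes cannot be told apart from transcripts on their opposite strands in the overlap.

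Promoter sequence was at hand for 8 of the 9 genes, all except Klrd1 (RefSeq, GRCm38.p6, from upstream of the start into the first bases of the transcript). It was searched on both strands for TGTGGT, the core bound by Runx factors, which regulate many lymphocyte genes, and for GGTGTGA, the core bound by T-box factors such as those encoded by Eomes and Tbx21. Both motifs were picked after the promoters had been looked at, so the counts are a description. TGTGGT was found in 6 of 8 NK gene promoters and in 18.9% of 27025 genes. GGTGTGA was found in 1 of 8, that of Xcl1, and in 4.6% of genes. The windows below are shown because they carry the shared motif, in capitals (ACCACA is the same motif on the other strand).
Ncr1, chr7:4337517-4337566, plus strand: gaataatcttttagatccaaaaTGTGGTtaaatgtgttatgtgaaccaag
Klrk1, chr6:129623966-129624015, minus strand: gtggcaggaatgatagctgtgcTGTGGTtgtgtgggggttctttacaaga
Klre1, chr6:129577963-129578011, plus strand: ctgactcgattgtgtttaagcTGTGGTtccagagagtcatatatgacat
Klrc1, chr6:129679033-129679082, minus strand: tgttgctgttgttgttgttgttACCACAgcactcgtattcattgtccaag
Klrb1c, chr6:128788703-128788752, minus strand: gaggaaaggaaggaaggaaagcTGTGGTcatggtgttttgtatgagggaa
Xcl1, chr1:164935722-164935771, minus strand: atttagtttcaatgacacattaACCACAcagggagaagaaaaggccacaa
Starts are those of RefSeq, so the windows of Klre1 and Klrb1c lie inside the GENCODE span of the gene. Ncr1 held a second match nearer its start. A match of 6 letters is no measure of binding, and Runx3 itself was at 21.3 CPM on day 0 and 26.2 CPM on day 3 (means of 3 tumors, adjusted p = 0.382 by edgeR's quasi-likelihood test).

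Each tumor had between 23.7 and 31.9 mega-counts in all, and a count of 3, the limit that a count of 0 allows, was worth 0.094 to 0.127 CPM, the unit of the gene values here, which scales counts to a common library total with TMM factors. The lowest count of any of the 9 genes in a tumor was 6 and the highest 2342. A single tumor, day 3 replicate 1, stood apart from the other 14: its mean correlation with them was 0.884, against 0.956 or more for the rest. Its mean log2 CPM of 10 skeletal muscle genes was 8.15, against at most 3.85 elsewhere, and that of adipocyte genes was 2.78, against at most 0.75. This tumor also held the highest value of all 9 NK genes, so the main results on day 3 are given with and without it. The part of muscle or fat tissue in those values was not tested.

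The activating receptors had their highest means on day 3. Ncr1, which encodes NKp46, a receptor that triggers killing and marks NK cells in all mouse strains, was measured at 3.54, 4.69 and 5.49 in the untreated tumors, 2.81, 4.03 and 9.43 on day 1, 45.9, 19.4 and 12.5 on day 3, 19.3, 9.64 and 4.92 on day 5, and 3.25, 11.9 and 1.13 on day 7 (CPM, replicates 1 to 3 in order). All 3 day 3 tumors lay above all 3 day 0 tumors, and the means were 25.9 ± 17.6 on day 3 and 4.57 ± 0.978 on day 0 (SD, n = 3). Klrk1 encodes NKG2D, which recognizes stress-induced ligands on target cells, and it was at 7.79, 18.9 and 15 in the untreated tumors, 11, 15.9 and 40.6 on day 1, 94.3, 44.8 and 41.3 on day 3, 52, 36 and 16.5 on day 5, and 11.5, 25.3 and 5.35 on day 7 (CPM). Again every day 3 tumor was above every day 0 tumor, although day 1 replicate 3 came within reach of the lower day 3 tumors. Klrb1c is annotated as the gene of NK1.1, an activating receptor of the NKR-P1 family. The reference comes from another strain than BALB/c, and whether these tumors held the NK1.1 form was not tested. Klrb1c was at 1.15, 2.05 and 1 in the untreated tumors, 0.434, 0.758 and 3.27 on day 1, 11.8, 5.48 and 4.36 on day 3, 6.41, 2.38 and 1.44 on day 5, and 0.244, 3.04 and 0.334 on day 7 (CPM). Per transcript length its level was the lowest of the 9 on day 3, with 2.75 ± 1.53 CPM per kb on day 3, against 18.8 ± 9.28 for Klrk1 and 17.3 ± 11.8 for Ncr1 (SD, n = 3).

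**Figure D1:**
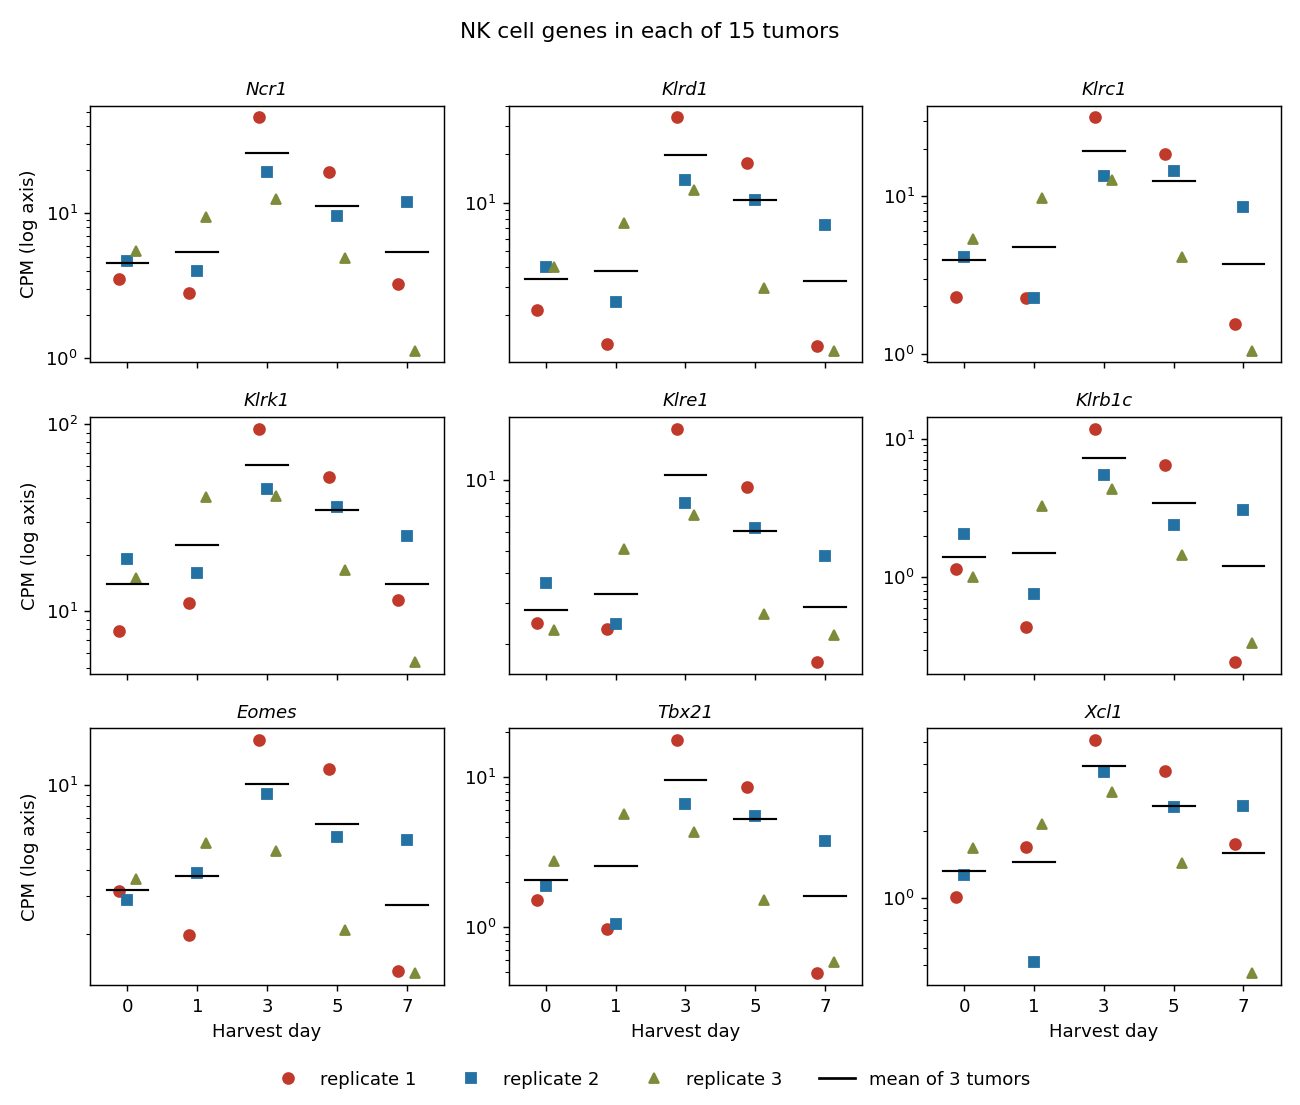
CPM on a log axis of the 9 NK cell genes in each tumor against harvest day, with 1 panel per gene, a symbol for each replicate number and a bar at the mean of the 3 tumors of a day. In every panel all day 3 tumors lie above all day 0 tumors, and the same tumor, replicate 1, is highest on day 3.

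The CD94 and NKG2 genes followed the same course. Klrd1 encodes CD94, the shared chain of the NKG2 receptors, and was at 2.16, 3.98 and 4 in the untreated tumors, 1.34, 2.43 and 7.49 on day 1, 34, 13.9 and 12 on day 3, 17.7, 10.4 and 2.98 on day 5, and 1.3, 7.34 and 1.21 on day 7 (CPM). Its partner Klrc1 encodes NKG2A, which inhibits NK cells when CD94 and NKG2A bind the nonclassical class I molecule Qa-1, and was at 2.29, 4.1 and 5.37 in the untreated tumors, 2.27, 2.27 and 9.66 on day 1, 31.5, 13.4 and 12.6 on day 3, 18.6, 14.5 and 4.13 on day 5, and 1.55, 8.48 and 1.05 on day 7 (CPM). Klre1, whose product pairs with other lectin-like receptors and can inhibit or activate, was at 2.46, 3.65 and 2.28 in the untreated tumors, 2.31, 2.43 and 5.09 on day 1, 16.6, 7.98 and 7.08 on day 3, 9.33, 6.26 and 2.69 on day 5, and 1.67, 4.75 and 2.17 on day 7 (CPM). For all 3 genes the tumors of days 0 and 3 were fully separate, and their day 5 tumors spread from the day 0 range to above the lowest day 3 value. Klrc2, the neighbor that shares sequence with Klrc1, had means of 1.82 CPM on day 0 and 5.47 CPM on day 3, and the part of shared reads in either gene was not tested.

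Both T-box transcription factors were above the counting limit in every tumor. Eomes, required for mature circulating NK cells, was at 3.17, 2.87 and 3.6 in the untreated tumors, 1.97, 3.87 and 5.32 on day 1, 16.3, 9.08 and 4.9 on day 3, 11.9, 5.73 and 2.08 on day 5, and 1.34, 5.55 and 1.3 on day 7 (CPM). Tbx21 encodes T-bet, which drives interferon gamma and late NK maturation, and was at 1.52, 1.86 and 2.76 in the untreated tumors, 0.969, 1.04 and 5.67 on day 1, 17.7, 6.58 and 4.32 on day 3, 8.64, 5.51 and 1.51 on day 5, and 0.488, 3.77 and 0.585 on day 7 (CPM). Day 3 and day 0 tumors did not overlap for either gene, with a gap that was narrow for Eomes, from 3.6 to 4.9 CPM. Xcl1, a chemokine with which NK cells attract cross-presenting dendritic cells, was at 1.01, 1.27 and 1.68 in the untreated tumors, 1.7, 0.519 and 2.14 on day 1, 5.11, 3.68 and 3 on day 3, 3.73, 2.56 and 1.44 on day 5, and 1.75, 2.59 and 0.46 on day 7 (CPM). It had the smallest spread on day 3, 3.93 ± 1.08 CPM against 1.32 ± 0.338 CPM on day 0 (SD, n = 3).

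The comparison of each treated day with day 0 asked when NK genes differed from untreated tumors. On day 3 all 9 genes were higher. Their log2 fold changes had a median of 2.22 and ran from 1.57 (Xcl1) to 2.56 (Klrd1), while the median over all genes tested was -0.02. None of this passed edgeR's test once p-values were adjusted over all genes by Benjamini-Hochberg: 0 of the 9 were called, as were 0.0% of all genes, and the adjusted p-values of the 9 were 0.115 to 0.147. At an unadjusted p under 0.05 by the same edgeR test, 9 of 9 were higher, against 18.3% of all genes. The tumors of the 2 days did not overlap for 9 of 9, against 19.4% of all genes with day 3 higher. Ncr1 had a log2 fold change of 2.50 ± 0.80 (SE), Klrk1 2.11 ± 0.65, Klre1 1.91 ± 0.54, Tbx21 2.22 ± 0.94 and Eomes 1.65 ± 0.69.

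DESeq2, run as an alternative, called 5 of the 9 as higher on day 3 (Ncr1, Klrd1, Klrc1, Klrk1 and Klre1), against 9.02% of all genes. On simulated counts of this design the share of unchanged genes among DESeq2's calls was above its threshold each time, while that of edgeR lay around its threshold. The simulation gave every gene the same spread and held no tumor that stood apart, so it does not give these shares for the real tumors. Without day 3 replicate 1, DESeq2 called 0 of the 9, against 0.28% of all genes. Without that tumor edgeR placed 4 of the 9 at an unadjusted p under 0.05 (Ncr1, Klrd1, Klrk1 and Klre1), against 6.52% of all genes. At an adjusted p under 0.05 it called 0 of the 9 and 0 of all genes. The 9 log2 fold changes were then 1.13 (Eomes) to 1.94 (Klrd1), with a median of 1.64, all still positive.

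**Figure D2:**
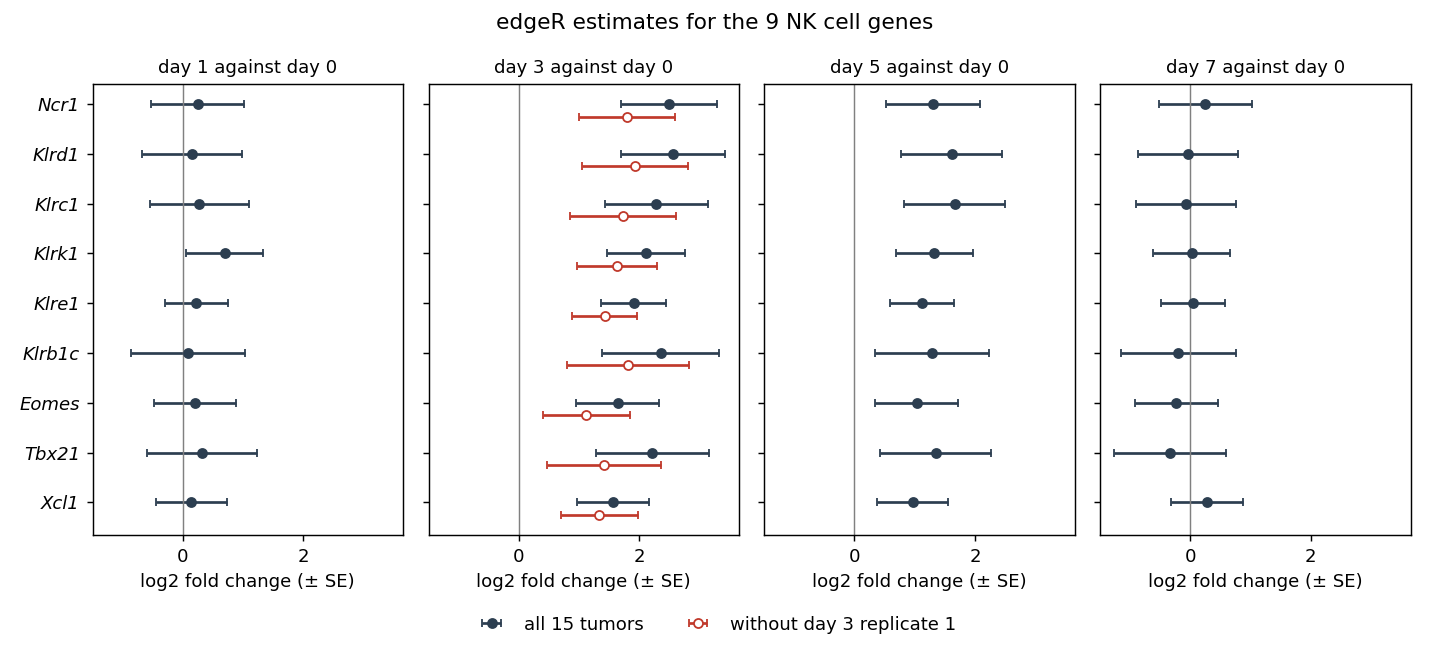
Log2 fold change with its SE from edgeR for the 9 NK cell genes on each treated day against day 0, fitted to all 15 tumors (filled) and, for day 3, without replicate 1 (open). The filled day 3 points lie between 1.57 and 2.56 and the open ones between 1.13 and 1.94, while day 1 and day 7 points lie around 0.

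On days 1, 5 and 7 the tumors overlapped those of day 0 in all 9 genes. The share of all genes without overlap was counted for day 5 only, so the overlap on days 1 and 7 is a description. On day 1 the 9 log2 fold changes had a median of 0.23. None of the 9 reached an unadjusted p under 0.05 by edgeR there, and the share of all genes was not counted. Its adjusted calls were 0 of 9 and 0.0% of all genes. The day 1 tumors disagreed among themselves: replicate 3 was highest in all 9 genes, and the ratio of the highest to the lowest tumor had a median of 4.13. On day 5 all 9 genes had positive estimates, with a median of 1.30, the highest for Klrc1 at 1.66 ± 0.84 (SE). None of the 9 had an unadjusted p under 0.05 by edgeR, against 1.41% of all genes with day 5 higher, and none was free of overlap, against 6.89% of all genes. EdgeR called 0 of 9 at an adjusted p under 0.05, as it called 0.0% of all genes. On day 7 the estimates ran from -0.33 (Tbx21) to 0.28 (Xcl1), with 4 above and 5 below 0. There too edgeR called 0 of 9 and 0.0% of all genes. All these comparisons share the day 0 tumors.

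Between day 3 and day 7 the 9 genes were lower on day 7, by a median log2 fold change of -2.25. Per the study's methods the day 7 tumors were taken after dosing had ended. The estimates ran from -2.60 (Klrd1) to -1.29 (Xcl1). EdgeR called 0 of 9 and 0.0% of all genes after Benjamini-Hochberg adjustment (adjusted p 0.0832 to 0.139 for the 9). At an unadjusted p under 0.05 by edgeR 9 of 9 were lower, against 22.6% of all genes. The tumors did not overlap for 8 of 9, all except Eomes, against 18.4% of all genes. Without day 3 replicate 3 edgeR called 1 of 9, Klre1, against 10.1% of all genes as lower. DESeq2 called 8 of 9 as lower, all except Xcl1, against 15% of all genes. Without day 3 replicate 1 the median was -1.60, and 3 of 9 had an unadjusted p under 0.05 by edgeR (Klrd1, Klrk1 and Klre1), against 8.48% of all genes. This comparison shares the day 3 tumors with that of day 3 against day 0. In the joint edgeR test of the 4 treated days 0 of 9 were called, as were 0.0% of all genes. In that test 5 of 9 had an unadjusted p under 0.05, against 16.2% of all genes. The joint DESeq2 test called 5 of 9, against 7.65% of all genes.

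Within each treated day the 9 genes shared their highest tumor. Replicate 3 on day 1, replicate 1 on day 3, replicate 1 on day 5 and replicate 2 on day 7 were each the highest of their day in 9 of 9 genes. Those tumors were the highest of their day in 42.0%, 43.5%, 35.7% and 38.0% of all genes. Day 0 had no such tumor, and its ratios of highest to lowest were also the smallest, with a median of 1.82. On day 7 that median was 6.05 and Klrb1c reached 12.5, from 0.244 to 3.04 CPM. The order of the day means put day 3 first and day 5 second for all 9 genes, but the tumors of days 3 and 5 overlapped for all 9, as did those of day 5 and day 1. The shares of all genes with such overlaps were not counted, so these overlaps are a description. Between 46.2% (Eomes) and 62.5% (Klre1) of the variance of log2 CPM lay between days, with the rest between tumors of the same day. The median over all genes was 38.2%.

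Over the 15 tumors the 36 pairs of NK genes had Pearson correlations of log2 CPM from 0.75 to 0.984, with a median of 0.941, and from 0.584 to 0.973 after subtracting day means. The points share the same libraries, so this is a description. The genes outside the 9 whose log2 CPM lay nearest to the mean of the 9, among 13496 candidates, included Nkg7 (r = 0.991), Gimap3, Ms4a4b, Lax1, Ikzf3, Satb1, Rinl and Cd2 (r = 0.986). Nkg7 encodes a granule protein of cytotoxic lymphocytes and Cd2 an adhesion molecule of T and NK cells.

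The NK genes were then set beside genes of all leukocytes and of T cells. The mean log2 CPM of the 9 was 1.64 ± 0.33 in untreated tumors, 1.67 ± 0.97 after 1 day, 3.64 ± 0.75 on day 3, 2.72 ± 1.04 on day 5 and 1.19 ± 1.30 in the last tumors (SD, n = 3 throughout). On day 3 it was 2.0 above day 0, while 10 leukocyte genes such as Ptprc, which encodes CD45, were 1.24 above and 15 T cell genes such as Cd3e 1.80 above. The 3 differences were 1.58, 0.87 and 1.25 without day 3 replicate 1. The NK level minus the leukocyte level was -4.72, -4.67 and -4.56 in the day 0 tumors and -3.78, -3.74 and -4.15 in the day 3 tumors, without overlap. The difference between these days was 0.76 with all tumors and 0.71 without day 3 replicate 1. Gene by gene, 6 of the 9 were free of overlap relative to leukocyte genes, against 1.69% of all genes with day 3 higher. Subtracting a level that was itself higher on day 3 lowers the day 3 value of every gene. Klrd1 stood 1.19 and Ncr1 1.05 higher on day 3 than on day 0 on that scale, against 0.23 for Eomes and 0.28 for Xcl1. Relative to T cell genes the NK level was -0.07 ± 0.14 on day 0 and 0.13 ± 0.33 on day 3 (SD, n = 3), with overlapping tumors, and 2 of 9 genes, Ncr1 and Klrd1, were free of overlap, against 0.284% of all genes. The T cell level ran from 1.45 to 1.93 in the day 0 tumors and from 2.89 to 4.60 in the day 3 tumors, so it moved with that of the NK genes, and the part of T cells in the genes that both cell types use was not tested.

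**Figure D3:**
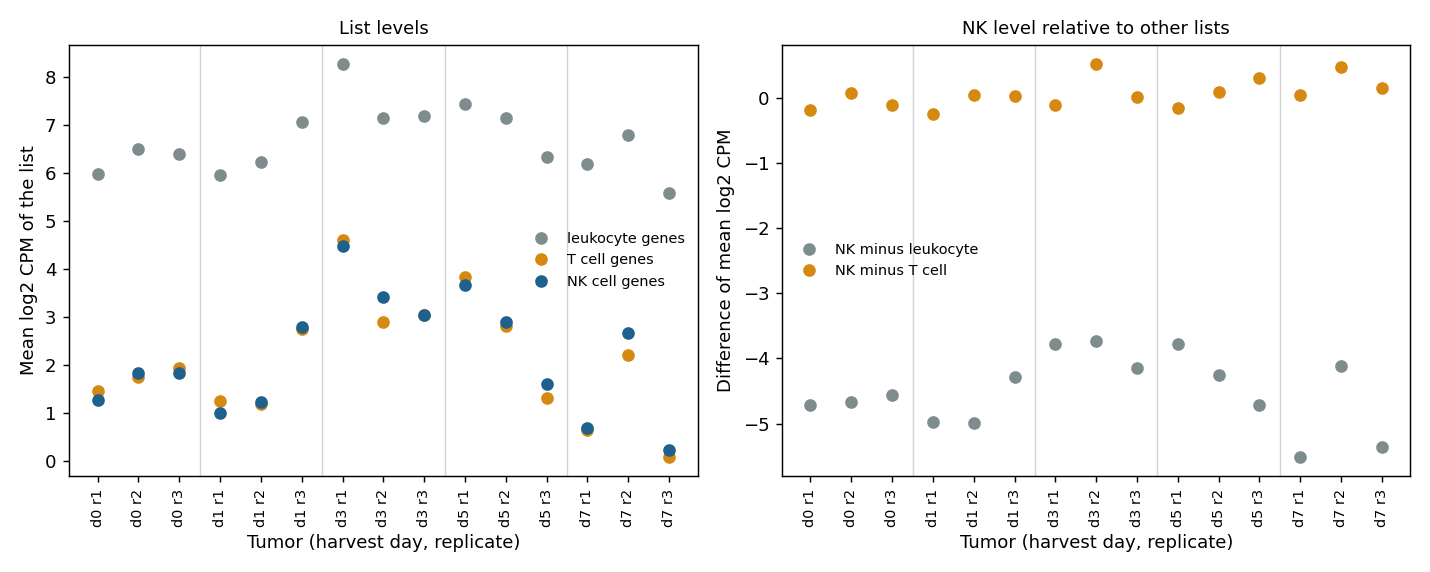
Left, mean log2 CPM of the leukocyte, T cell and NK cell genes in each tumor, labeled by day (d) and replicate (r); right, the NK level minus each of the other levels. The NK and T cell levels track each other from tumor to tumor, and the NK minus leukocyte values of the 3 day 3 tumors lie between -4.15 and -3.74, above those of the day 0 tumors.

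Other genes of NK cell biology were read from lists written from general knowledge. Of 25 other NK receptor genes tested, 25 had higher estimates on day 3, against 48.0% of all genes, and the median log2 fold change was 1.66. Without day 3 replicate 1 the median was 1.07, and 22 of 23 genes tested were higher. With all tumors the lowest was Tigit, an inhibitory receptor also used by T cells, at 0.14 ± 0.29 (SE). The highest estimate was that of Klra4, a Ly49 gene, which rests on counts of 0, 0 and 1 on day 0 and 19, 10 and 3 on day 3. Klra4 and Klra9 passed the filter on low counts only with day 3 replicate 1. Their high values in that tumor thus helped to place them among the 25, so their higher estimates are a description. The Ly49 family differs between mouse strains, and the reference comes from another strain than BALB/c. All 11 signaling adaptor genes had higher estimates, with a median of 1.61 (1.09 without day 3 replicate 1). Hcst was at 2.36 ± 0.79 and Sh2d1b2 at 0.91 ± 0.51 (SE), and without that tumor Hcst was at 1.35 and Sh2d1b2 at 0.93. Hcst encodes DAP10, the partner of NKG2D. Some genes of these lists were far above the 9 on day 0: Tyrobp and Fcer1g among the adaptors had means of 74.5 and 99.3 CPM. Fcgr3 among the receptors was at 127 CPM, against at most 13.9 CPM (Klrk1) for the 9. The 10 leukocyte genes had a median of 1.38 on day 3 (0.87 without day 3 replicate 1). All 8 innate lymphoid genes had higher estimates on day 3, with a median of 1.30 (0.61 without that tumor). The part of other leukocytes in these lists was not tested.

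All 12 effector genes had higher estimates on day 3, with a median of 1.61, which was 1.66 without day 3 replicate 1. Ccl5, a chemokine of activated lymphocytes, was highest at 2.48 ± 0.68 and Gzmc, a granzyme, lowest at 0.50 ± 0.61 (SE), and without that tumor they were at 2.47 and 0.88. Of 18 regulators and cytokine receptors 16 had higher estimates, with a median of 1.25. These were 13 and 0.91 without day 3 replicate 1. Cxcr3, a chemokine receptor for interferon-induced ligands, was at 2.93 ± 1.14, and Il18rap, a subunit of the interleukin 18 receptor, at -0.48 ± 0.19 (SE). Without that tumor Cxcr3 was at 1.45 and Il18rap at -0.23. EdgeR called 0 genes of these 4 lists at an adjusted p under 0.05, as it called 0.0% of all genes. At an unadjusted p under 0.05 it placed 15 receptors, 10 adaptors, 9 effectors and 10 regulators as higher, beside 18.3% of all genes. Klra4 and Klra9 are among those 15 receptors. DESeq2 called 8, 10, 6 and 9, beside 9.02% of all genes. Without day 3 replicate 1 the counts became 8, 6, 7 and 3 by edgeR, beside 6.52% of all genes, and 0 in each list by DESeq2, beside 0.28%.

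The list of NK receptor ligands also holds Xcr1, which is the receptor for Xcl1 and not a ligand. Of the 12 genes tested in this list, 6, Xcr1 among them, had higher and 6 lower estimates on day 3. The median was 0.06 (0.10 without day 3 replicate 1). EdgeR called 0 of them at an adjusted p under 0.05, as it called 0.0% of all genes. At an unadjusted p under 0.05 it placed 6 higher, against 18.3% of all genes, and 2 lower. Without day 3 replicate 1 it placed 2 higher, against 6.52% of all genes, and 1 lower. DESeq2 called 4 higher, against 9.02% of all genes, and 1 lower. The share of all genes that were lower was not counted, so the lower counts are a description. The higher ones included Cd48, the ligand of 2B4, at 1.91 ± 0.55, and H2-T23, which encodes the Qa-1 molecule seen by CD94 and NKG2A, at 0.99 ± 0.34 (SE), and without that tumor Cd48 was at 1.21 and H2-T23 at 0.79. The 5 NKG2D ligands tested, Raet1d, Raet1e, H60b, H60c and Ulbp1, all had negative estimates, while 48.0% of all genes had positive ones. Of these ligands only H60b and Ulbp1 had an unadjusted p under 0.05 by edgeR, and the tumors of days 0 and 3 overlapped for H60c. Raet1a, Raet1b, Raet1c and H60a had no entry among the genes counted. The reference comes from another strain than BALB/c, and the effect of this on the NKG2D ligands was not tested. Ulbp1 was the lowest at -0.94 ± 0.38 (SE), with 32.3, 35.1 and 33.6 CPM in the day 0 tumors and 10.3, 15.2 and 27.2 CPM in the day 3 tumors. Without day 3 replicate 1 its estimate was -0.66. Among cytokines that act on NK cells Il15 was at 3.94, 6.78 and 7.09 CPM on day 0, 6.38, 8.18 and 20.0 CPM on day 1 and 12.2, 11.5 and 10.8 CPM on day 3. Its day 3 tumors lay above its day 0 tumors, as in 19.4% of all genes, with an adjusted p of 0.139 by edgeR's test. All 4 genes tested in this list had higher estimates on day 3, with a median of 0.94 (0.83 without day 3 replicate 1). Day 1 replicate 3 held the highest Il15 and the most of all 9 NK genes on day 1, as it did for 42.0% of all genes. Its NK level was 2.78, against 3.04 to 4.48 in the day 3 tumors, whose Il15 was lower. A link between Il15 and the NK genes was not tested. Il2, Il12a, Il21 and Ifnb1 did not pass the filter on low counts.

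**Figure D4:**
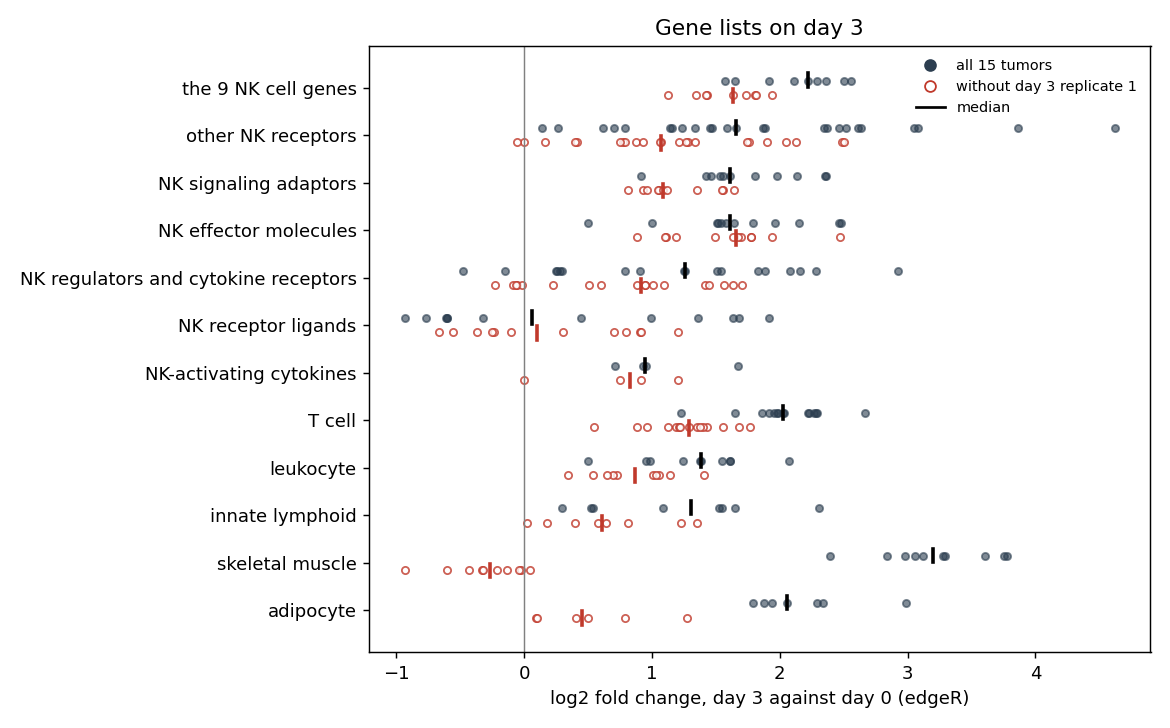
Log2 fold change on day 3 against day 0 by edgeR for each tested gene of each list, with all tumors (filled) and without day 3 replicate 1 (open), and the median of each list as a bar. Leaving out that tumor moves the median of the 9 NK cell genes from 2.22 to 1.64 and that of skeletal muscle genes from 3.20 to -0.27.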

How the data were processed

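Poly(A) RNA of 15 tumors was sequenced as single-end reads. The authors estimated transcript abundance with kallisto on the mm10 (GRCm38) reference, summed it to genes with tximport and deposited whole-number estimated counts for each gene, which needed no rounding. The transcript set and strand setting were not given in the sources used here. Harvest day and replicate came from the labels. Total counts were 23.7 to 31.9 mega-counts per tumor; limits from counts cover counting error only. Of 32544 entries, 1 had been turned into a date by a spreadsheet and was left out (at most 0.0268% of a tumor's counts). Genes with over 0.366 CPM in at least 3 tumors were kept, which left 15494.

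Tests used edgeR 4.0.16 in R 4.3.3 (TMM scaling, glmQLFit on harvest day over the 15 tumors, two-sided quasi-likelihood F tests) and Benjamini-Hochberg adjustment over all genes, called at an adjusted p under 0.05. DESeq2 1.42.0 was an alternative. Both were tested on simulated data with the same spread for every gene and no tumor that stood apart, unlike the real tumors. There the share of false calls lay around the threshold for edgeR, above it in some runs, and well above it for DESeq2 in every run. The limit used to accept this check was reset after DESeq2 had exceeded the first. Nothing in the labels says whether the tumors of a day came from separate experiments. A legend of the study states that this time course was not repeated, so p-values measure the spread between tumors within that experiment. A list's level is its mean log2 CPM (prior count 2). The genes named were the 9 NK genes, up to 4 per list (lowest and highest on day 3 and those a result turns on) and the 10 genes nearest to the NK level with a mean CPM of at least 1, of which 2 are not reported here. The members and lists were chosen with earlier results of these data known. Alternatives were size factors by RLE, no filter on low counts, a replicate block, only the 2 days compared, and leaving out each tumor.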

Additional observations from a re-analysis of the deposited data

How the results depend on the processing

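All 9 genes kept a positive estimate on days 3 and 5 and a negative one between day 3 and day 7 in 189 of 189 values each, over 21 alternatives, but sizes moved: on day 5 they fell to between 0.28 (Eomes) and 1.25 (Klrc1) without day 5 replicate 1. EdgeR called 0 of 9 genes and 0.0% of all genes in every comparison, and most alternatives also called 0 of the 9. DESeq2 called 5 on day 3 against day 0, 8 on day 7 against day 3 and 5 in the joint test. Without day 3 replicate 1 it called 0 on day 3 and gave no adjusted p for day 7 against day 3, so no count is given there. Leaving out single tumors gave counts of 0 to 1 for day 7 against day 3, the 1 being Klre1 without day 3 replicate 3, where 10.1% of all genes were called lower. The replicate numbers did not pair the tumors (9 of 30 same-numbered pairs correlated above 0.1). With a replicate block 0 genes were called in each comparison, and the day 7 estimate of Klrk1 against day 0 became -0.05.

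Estimates near 0 changed sign when single tumors were left out; the cause was not tested. On day 1, where leaving out replicate 3 gave every lowest value, log2 fold changes ranged from -0.42 to 0.56 for Ncr1, -0.84 to 0.56 for Klrd1, -0.78 to 0.61 for Klrc1, -0.04 to 1.02 for Klrk1, -0.24 to 0.47 for Klre1, -1.23 to 0.53 for Klrb1c, -0.14 to 0.52 for Eomes, -1.02 to 0.72 for Tbx21 and -0.23 to 0.54 for Xcl1. On day 7 against day 0, where leaving out day 7 replicate 2 gave every lowest value, they ranged from -1.06 to 0.73 for Ncr1, -1.42 to 0.36 for Klrd1, -1.59 to 0.36 for Klrc1, -0.72 to 0.41 for Klrk1, -0.54 to 0.31 for Klre1, -2.26 to 0.28 for Klrb1c, -1.28 to 0.10 for Eomes, -1.92 to 0.09 for Tbx21 and -0.25 to 0.72 for Xcl1.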
